A study of Mus musculus with 18 samples.

Results

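A set of 10 genes separated the Type D cell line 4711-18 from its 2 companion lines by a simple rule on transcript levels. They were chosen by their measured levels: at least 5 TPM, a measure of transcript abundance scaled for gene length and library size, in all 6 samples of 4711-18 and below 1 TPM in all 12 samples of lines 4711-1 and 4716-11. The rule took 10 of the 25239 genes in the table, which is 0.114% of the 8765 genes that reached 5 TPM in all 6 samples of 4711-18. Described here by name are 9 of them: Atp6v0e2, Slc38a1, Cdhr5, Mageh1, Rragb, Tbkbp1, Sox12, Lefty1 and St6galnac2. Turned to the other lines, the same rule found 9 genes for 4711-1 and 2 for 4716-11. Because the rule used the levels in all 3 lines, the difference between lines is given as a description with no test.

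The samples were RNA-sequencing libraries of 3 mouse lines derived from small cell lung cancer (SCLC), a neuroendocrine tumour of the lung. All 3 carry Rosa26 FlpO-ER, Rbl2 flox/flox, Rb1 flox/flox and Trp53 XTR/XTR, and tumours were started with adenoviral CMV-Cre, so every group, controls included, lacks Rb1 and Rbl2. In the Control state (vehicle) a gene trap inactivates Trp53, though its transcripts stood at 5.45 to 8.41 TPM in 4711-18. Treatment with 4-OHT for 72 h activates FlpO, which removes the trap and restores p53 (Restored). Each line was made with a LentiCRISPRv2 vector holding sgBgal, a control guide, or 1 of 2 guides against Ppia (sgPpia#3.2 and sgPpia#4.1), the gene of the peptidyl-prolyl isomerase cyclophilin A. One library was made for each line, guide and state, 18 in all, so that 4711-18 had 3 Control and 3 Restored libraries. The Type D lines are those that die after p53 restoration. The 3 pairs in 4711-18 are pools of cells of 1 tumour-derived line with different guides, not separate animals, and p-values measure only the spread between these cultures.

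The proteins have diverse roles. Atp6v0e2 is a small subunit of the V-ATPase, the proton pump that acidifies lysosomes. Rragb is a Rag GTPase, one of the switches that bring the growth kinase complex mTORC1 to the lysosome when amino acids are plentiful. Slc38a1 carries glutamine and other neutral amino acids into the cell together with sodium. Sox12 is a transcription factor of the SoxC family. Lefty1 is a secreted inhibitor of Nodal, an embryonic signal of the TGF beta family. Tbkbp1 is an adaptor that binds TBK1, a kinase of innate immune signalling. Cdhr5 is a cadherin that links the tips of microvilli in gut and kidney epithelium, Mageh1 belongs to the melanoma antigen (MAGE) family, and St6galnac2 adds sialic acid to sugars on mucin-type glycoproteins.

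The promoters of the 3 genes with the largest positive p53 differences, Tbkbp1, Atp6v0e2 and Rragb, and that of Mageh1, the neighbour of Rragb on chromosome X, are shown because these genes carry the p53 and neighbour comparisons. Each is 250 bases before to 50 after an annotated start, from RefSeq on build GRCm38.p6, 5′ to 3′ on the gene's own strand. Capitals mark the letters CACGTG, the CCAAT box on either strand and matches to the p53 decamer motif. For Tbkbp1, RefSeq gives an upstream and a downstream start. The Rragb window lies wholly inside the annotated gene (chrX:153137644-153190192), so it is not at the outermost start of that gene.
Atp6v0e2, chr6:48537319-48537618, plus strand: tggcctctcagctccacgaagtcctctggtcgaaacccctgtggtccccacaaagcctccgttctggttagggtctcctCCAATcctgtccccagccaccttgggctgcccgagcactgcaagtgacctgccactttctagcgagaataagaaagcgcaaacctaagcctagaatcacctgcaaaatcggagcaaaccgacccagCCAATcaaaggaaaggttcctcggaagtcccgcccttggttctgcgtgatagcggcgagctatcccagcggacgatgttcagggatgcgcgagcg
Rragb, chrX:153139708-153140007, plus strand: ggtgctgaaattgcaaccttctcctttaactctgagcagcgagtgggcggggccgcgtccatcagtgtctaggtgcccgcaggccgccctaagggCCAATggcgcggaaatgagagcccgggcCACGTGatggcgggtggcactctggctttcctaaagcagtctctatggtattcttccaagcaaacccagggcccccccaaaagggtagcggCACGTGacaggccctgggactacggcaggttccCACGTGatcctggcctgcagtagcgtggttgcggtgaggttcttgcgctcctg
Mageh1, chrX:153037514-153037813, minus strand: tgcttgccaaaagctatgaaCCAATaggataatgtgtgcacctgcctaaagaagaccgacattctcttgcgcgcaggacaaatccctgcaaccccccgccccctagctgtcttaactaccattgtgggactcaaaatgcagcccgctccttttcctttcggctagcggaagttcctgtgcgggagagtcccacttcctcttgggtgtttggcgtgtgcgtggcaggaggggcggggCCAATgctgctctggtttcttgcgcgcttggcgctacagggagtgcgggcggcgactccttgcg
Tbkbp1 upstream start, chr11:97151457-97151756, minus strand: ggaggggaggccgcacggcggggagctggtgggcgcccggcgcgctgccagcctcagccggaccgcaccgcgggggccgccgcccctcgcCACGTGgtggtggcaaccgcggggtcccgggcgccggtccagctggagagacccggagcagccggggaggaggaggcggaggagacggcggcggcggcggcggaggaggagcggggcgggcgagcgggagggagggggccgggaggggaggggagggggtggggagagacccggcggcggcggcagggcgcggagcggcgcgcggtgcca
Tbkbp1 downstream start, chr11:97150026-97150325, minus strand: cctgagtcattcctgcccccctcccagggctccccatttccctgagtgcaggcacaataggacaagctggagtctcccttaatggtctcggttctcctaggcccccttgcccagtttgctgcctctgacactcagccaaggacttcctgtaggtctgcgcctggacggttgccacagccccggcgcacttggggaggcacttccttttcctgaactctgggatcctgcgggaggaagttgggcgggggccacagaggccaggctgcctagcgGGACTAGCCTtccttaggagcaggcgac

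RefSeq promoter entries were found for 6 of the 10 genes, 7 entries in all, the other 2 genes being Cdhr5 and Sox12. The Rragb window held CACGTG 3 times. CACGTG stood in 7.15% of 32807 mouse promoter windows of the same length, and 29 of them held 3 or more. The Tbkbp1 upstream window held it once, and the Atp6v0e2 and Mageh1 windows not at all. The p53 decamer matched once in the 7 entries, in the Tbkbp1 downstream window, where it began 22 bases past the start, and 8.36% of all windows held a match. The TATA box TATAAA was in none of the 7 entries against 13.6% of all windows, and the GC box GGGCGG was in 6 against 35.6%. The first Tbkbp1 window was 83.0% G or C with 44 CpG sites, against medians of 52.7% and 7 over all windows. Of the 7 entries, 5 had a GC content of at least 50% and an observed to expected CpG ratio of at least 0.6, against 33.4% of all windows. Motifs were searched on both strands and chosen with these sequences in view, and a match is a description of letters, not a binding site.

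The levels of the 10 genes in 4711-18 reached from medians of 6.61 TPM (St6galnac2) to 55.4 TPM (Atp6v0e2). The highest value in any of the 12 other samples was 0.930 TPM, in St6galnac2. The lowest 4711-18 value exceeded the highest value elsewhere by 5.46 times for St6galnac2 and by up to 40.3 times for Atp6v0e2. Over the 12410 genes with a median of at least 1 TPM in a line, 4.44% had all 6 samples of 4711-18 above all 12 others; the rule fixes this for the members, and nothing is read from it. Over the 6 libraries of 4711-18 the coefficient of variation ran from 16.2% (St6galnac2) to 43.5% (Tbkbp1). Low elsewhere was not listed at 0: 9 of the 10 genes had values above 0 in all 12 other samples, and only 3 of the 120 values there were 0, all of Lefty1.

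**Figure D1:**
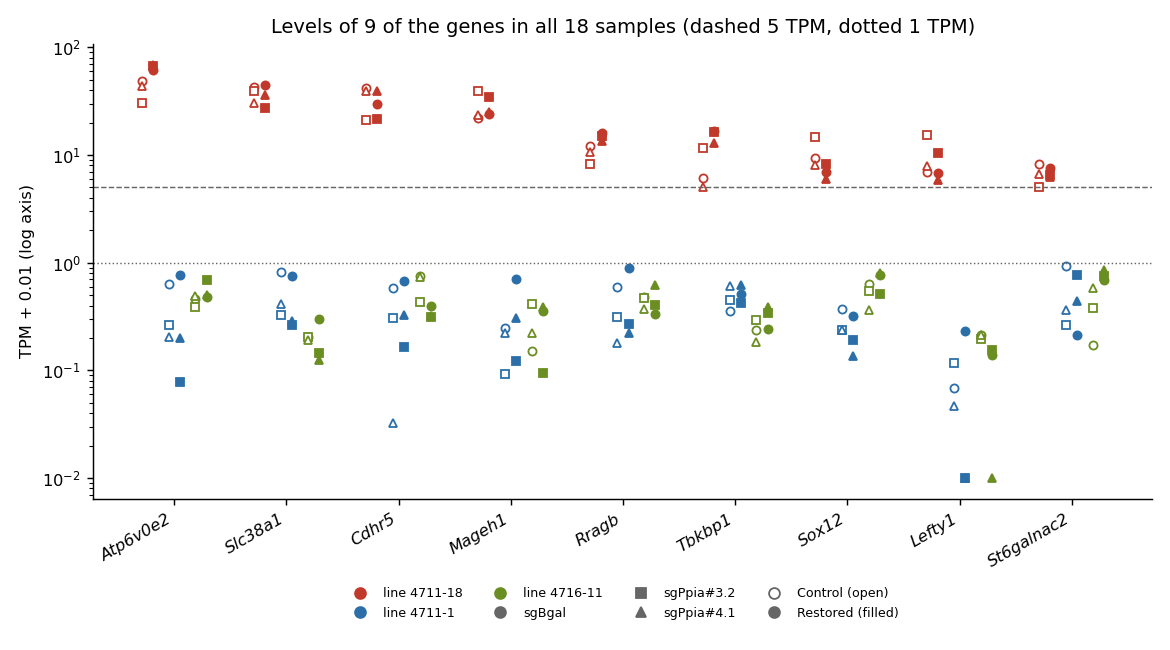
Level of 9 of the genes in all 18 samples, as TPM + 0.01 on a log axis, with 1 point per library coloured by line, shaped by guide, open for Control and filled for Restored. The red points of 4711-18 all lie above the dashed 5 TPM limit and every other point lies below the dotted 1 TPM limit, as the rule requires.

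The genes near the limits show how sharp the choice was. Just inside the lower limit lay Tbkbp1, with a lowest value of 5.05 TPM in 4711-18, St6galnac2 with 5.08 TPM and Lefty1 with 5.82 TPM. Just outside it lay Adgrl2, whose lowest value was 4.90 TPM, Tcf4 with 4.31 TPM and Lrig3 with 3.78 TPM. The upper limit was closest for St6galnac2 and Rragb (0.879 TPM), while Vip reached 1.23 TPM, Tmem88 1.42 TPM and Khdrbs3 1.52 TPM outside 4711-18 and were left out. A lower limit of 3 TPM took 15 genes and one of 10 TPM took 5, among them Slc38a1, Mageh1, Atp6v0e2 and Cdhr5. With 0.5 TPM as the upper limit Lefty1 alone remained, and with 2 TPM there were 17 genes.

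The low values of these genes in the other lines were compared between libraries. Set against the 4711-18 median of each gene, the median over the 10 genes was 1.21% to 2.92% in the 6 libraries of 4711-1 and 1.44% to 1.997% in those of 4716-11. In 4711-1 the highest value stood in an sgBgal library for 9 of the 10 genes, and for 5 genes both sgBgal libraries lay above the other 4. Of the 1726 genes above 0 and below 1 TPM in all 12 samples of those lines, 51.7% had their highest 4711-1 value in an sgBgal library and 17% had both sgBgal libraries above the other 4. The sgBgal libraries were the shallowest of 4711-1, with relative depths of 1.09 and 1 against 1.48 to 1.78, and the part of depth in these counts was not tested. In 4716-11 the highest value stood in an sgBgal library for 2 genes, in an sgPpia#3.2 library for 3 and in an sgPpia#4.1 library for 5. The 9 genes found for 4711-1 had similar traces in 4711-18, with library medians between 0.936% and 3.05%. Whether these values are transcripts of the cells or carry-over between libraries was not tested.

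The cell identity of 4711-18 was checked against markers. Of 16 neuroendocrine SCLC markers, 7 had a median of at least 1 TPM in 4711-18. Chga, which encodes a protein of neuroendocrine secretory granules, stayed at or below 0.156 TPM, and Calca was listed at 0. Both were as low in the other lines, at up to 0.134 TPM for Chga and 0.0181 TPM for Calca. Ddc, which encodes an enzyme of amine synthesis, was at 5.34 to 38.1 TPM in 4711-18 and at most 1.75 TPM elsewhere. Ncam1 was at 6.90 to 14.5 TPM and Uchl1 at 2.10 to 2.81 TPM, both overlapping the other lines. Syp lay between 4.63 and 6.50 TPM, within the 3.03 to 7.12 TPM of the other lines. Nkx2-1, a lung lineage factor, lay between 49.3 and 155 TPM in 4711-18. It was lower in the other lines, at 1.73 to 6.77 TPM in 4711-1 and 22.1 to 33.2 TPM in 4716-11. The summed level of 12 fibroblast markers was 2.75 to 6.92 TPM, that of 6 endothelial markers 0.264 to 0.712 TPM and that of 6 erythroid markers 0.375 to 0.938 TPM. The 10 leukocyte markers summed to 132 to 145 TPM with 2 genes at a median of at least 1 TPM, and Cd3e and Adgre1 at 0. They summed to 121 to 521 TPM in 4711-1 and 227 to 294 TPM in 4716-11. The 9 gut and liver markers summed to 270 to 401 TPM with 6 genes at a median of at least 1 TPM. Their sums were 206 to 338 TPM in 4711-1 and 149 to 222 TPM in 4716-11. None of the 10 genes is a marker on these lists, and the part of such cells in their levels was not tested.

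Restoration itself was seen in every 4711-18 pair. Trp53 went from 8.41 to 206 TPM with sgBgal, from 5.45 to 181 TPM with sgPpia#3.2 and from 8.27 to 219 TPM with sgPpia#4.1. Of 32 canonical p53 targets 27 rose and none fell. Ppia stood at 2575 TPM (Control) and 1551 TPM (Restored) with sgBgal, 658 and 769 TPM with sgPpia#3.2, and 1684 and 1191 TPM with sgPpia#4.1, lowest with sgPpia#3.2 and well above 0 with both guides. The sgPpia#3.2 Control library stood apart from the other Controls in several genes. Cdkn1a, the cell cycle inhibitor that p53 switches on, was at 369 TPM there against 154 and 171 TPM, Myc at 364 TPM against 184 and 194 TPM, and Hes1, a Notch target, at 73.4 TPM against 234 and 158 TPM. Its part in the members' values was not tested beyond leaving it out. Mdm2, another p53 target, was at 95.7 TPM against 88.8 and 92.3 TPM, and Trp53 itself was lowest in that library. The 6 libraries of 4711-18 differed in relative depth by 1.03 to 1.31 times the shallowest of the series. The members' deposited values were whole multiples of a small step, to within 1.1e-06 of a step, and those in 4711-18 corresponded to 199 to 9057 such steps.

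The question for the p53 contrast was whether the genes of this line also respond to p53. The contrast averages the sgBgal pair with the pairs of both Ppia guides. The paper reports weaker enrichment of p53 pathway genes after Ppia targeting in Type D cells. The average is therefore not the response with sgBgal alone. None of the 10 passed the test in either direction (limma, adjusted p under 0.05 and a log2 fold change of at least 1 in size), where 9.73% of the 11960 genes tested rose and 4.31% fell. The rule holds all 6 values at or above 5 TPM and so limits how far a member can fall; among the 8765 genes with that floor, 7.85% rose and 2.82% fell. With the adjusted p alone, 3 members were higher after restoration (Tbkbp1, Atp6v0e2, Rragb) and 1 was lower (Sox12), where 30.9% of all genes tested were higher and 11.6% lower. The members' counts of 3 and 1 in 10 are close to these shares. The median log2 fold change was -0.03 over the members, 0.21 over the genes with the floor and 0.23 over all genes tested. After rescaling by median-of-ratios factors the median over all genes moved to -0.0049, that over the members to -0.28, and the split of all calls from 1164 up and 515 down to 727 up and 760 down, so each value is best read against these medians.

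**Figure D2:**
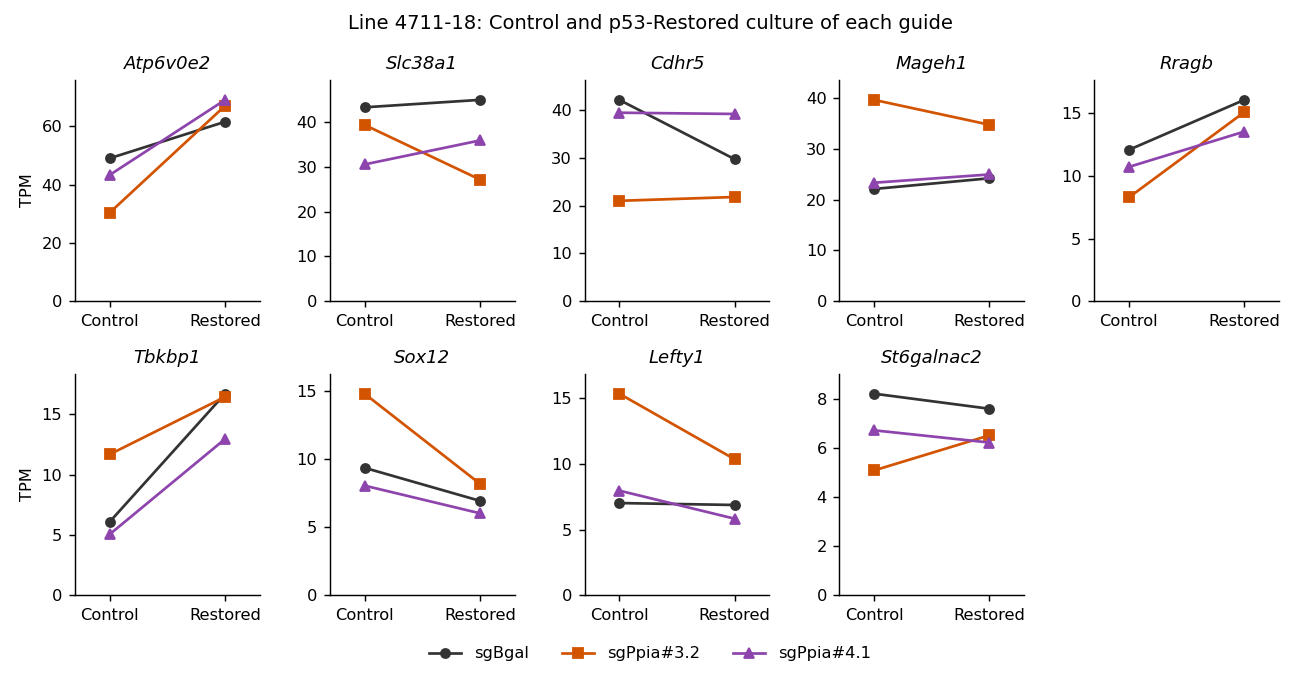
TPM of 9 of the genes in the 6 libraries of 4711-18, with a line joining the Control and Restored culture of each guide and all axes starting at 0. Atp6v0e2, Rragb and Tbkbp1 were higher after restoration with all 3 guides, Sox12 and Lefty1 lower with all 3, and the rest went both ways.

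Tbkbp1 had the largest p53 difference. It stood at 6.09 TPM in Control and 16.7 TPM in Restored with sgBgal, 11.7 and 16.5 TPM with sgPpia#3.2, and 5.05 and 13.0 TPM with sgPpia#4.1. All 3 Restored values lay above all 3 Control values, and the sgPpia#3.2 Control was the highest Control. The means were 7.61 ± 3.57 TPM and 15.4 ± 2.10 TPM (SD, n = 3 each). The log2 fold change was 1.00 (SE 0.20, limma adjusted p = 0.0181) and lay just under 1 before rounding, which kept Tbkbp1 short of the fold threshold. Without the sgPpia#3.2 pair it was 1.26 with an adjusted p of 0.000387 by limma, past both thresholds, and a smaller pseudocount of 0.1 gave 1.09 (adjusted p = 0.0259). The value was lower without the sgBgal pair (0.83), without the sgPpia#4.1 pair (0.89) and after rescaling (0.76, adjusted p = 0.0312).

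Atp6v0e2 was at 49.1 and 61.6 TPM (Control and Restored) with sgBgal, 30.4 and 67.1 TPM with sgPpia#3.2, and 43.4 and 69.1 TPM with sgPpia#4.1. The states did not overlap, and the lowest value was that of the sgPpia#3.2 Control. The log2 fold change was 0.70 (SE 0.18, limma adjusted p = 0.0341), and 0.45 with an adjusted p of 0.132 after rescaling. Rragb was at 12.1 and 16.1 TPM with sgBgal, 8.28 and 15.1 TPM with sgPpia#3.2, and 10.7 and 13.5 TPM with sgPpia#4.1. Its states did not overlap either, and the difference was widest with sgPpia#3.2. The log2 fold change was 0.50 (SE 0.15, limma adjusted p = 0.0463), and 0.26 with an adjusted p of 0.252 after rescaling. An exact permutation test of 3 against 3 cannot give a p below 0.1, and all 3 of these genes reached it. Restored values above Control values without overlap were found in 3 of the 10 members and in 36% of the 8765 genes with the floor.

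Sox12 was at 9.38 and 6.95 TPM (Control and Restored) with sgBgal, 14.8 and 8.20 TPM with sgPpia#3.2, and 8.06 and 6.03 TPM with sgPpia#4.1. It was lower after restoration in all 3 pairs, but the states overlapped, since the sgPpia#3.2 Restored value lay above the sgPpia#4.1 Control value. The log2 fold change was -0.51 (SE 0.14, limma adjusted p = 0.0382), and -0.73 with an adjusted p of 0.0127 after rescaling. The fit without the guide as a block gave an adjusted p of 0.114, and one of 0.0553 for Rragb. No member had all Restored values below all Control values, against 14.3% of the genes with the floor.

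The adjusted p-values of these 4 genes depended on single guides. Without the sgPpia#4.1 pair they were 0.0822 for Tbkbp1, 0.128 for Atp6v0e2, 0.155 for Rragb and 0.156 for Sox12 by limma. Without the sgBgal pair they were 0.128 for Rragb and 0.111 for Sox12, and with no filter on low values they lay between 0.0569 and 0.0829 for all 4. The directions of the 4 genes held in each of these fits.

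Lefty1 was at 7.02 and 6.87 TPM with sgBgal, 15.4 and 10.4 TPM with sgPpia#3.2, and 7.96 and 5.82 TPM with sgPpia#4.1. Both sgPpia#3.2 values lay above the other 4, and the sgBgal pair was nearly level. Its log2 fold change was -0.32 (SE 0.15, limma adjusted p = 0.137). It ranged from -0.46 without the sgBgal pair to -0.21 without the sgPpia#3.2 pair. After rescaling it was -0.54 (adjusted p = 0.0378), below 0 in both scalings.

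Cdhr5, Slc38a1, Mageh1 and St6galnac2 moved little or unevenly with p53. Cdhr5 was at 42.1 and 29.7 TPM with sgBgal, 21.0 and 21.8 TPM with sgPpia#3.2, and 39.4 and 39.2 TPM with sgPpia#4.1, so the sgBgal pair alone carried its log2 fold change of -0.15 (SE 0.15). Slc38a1 was at 43.2 and 44.9 TPM with sgBgal, 39.3 and 27.1 TPM with sgPpia#3.2, and 30.5 and 35.8 TPM with sgPpia#4.1, with a log2 fold change of -0.08 (SE 0.18). The pairs of both genes went in opposite directions. Mageh1 was at 22.1 and 24.2 TPM with sgBgal, 39.6 and 34.7 TPM with sgPpia#3.2, and 23.3 and 24.9 TPM with sgPpia#4.1, with a log2 fold change of 0.01 (SE 0.13). St6galnac2 was at 8.21 and 7.60 TPM with sgBgal, 5.08 and 6.51 TPM with sgPpia#3.2, and 6.72 and 6.22 TPM with sgPpia#4.1, with a log2 fold change of 0.04 (SE 0.14). The limma adjusted p-values of these 4 lay between 0.464 and 0.949, and the values of Mageh1 and St6galnac2 changed sign with the scaling, to -0.23 and -0.18. Rescaling took Cdhr5 to -0.39 (limma adjusted p = 0.109) and Slc38a1 to -0.33 (adjusted p = 0.158).

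The guide contrasts compared the Control and Restored libraries of a Ppia guide with those of sgBgal, 2 against 2, with the state as a covariate. The sources used here do not say that the 2 libraries of a guide came from separately transduced cultures, so the guide p-values measure the spread between these libraries, not between independently made cultures. No member was called with sgPpia#3.2 or sgPpia#4.1 by limma, and neither was any other of the 11960 genes (0% with sgPpia#3.2 and 0% with sgPpia#4.1). At an unadjusted p under 0.05 there were 2247 genes with sgPpia#3.2 (18.8%), 3 of them members, and 447 genes with sgPpia#4.1 (3.74%), none of them members. Leaving out 1 library changed the count for all genes with sgPpia#3.2, to 86 up and 284 down without its Control library and to 357 up and 406 down without its Restored library. With 1 library left, that guide is assumed to vary like the other 2 guides, so these counts say little of the guide itself. With sgPpia#4.1, leaving out 1 library gave at most 1 up and 5 down. A fit over all 18 samples called 70 genes up and 153 down with sgPpia#3.2, none of them members, and 0 with sgPpia#4.1. The median log2 difference over the members was 0.0043 with sgPpia#3.2 and -0.15 with sgPpia#4.1, beside -0.10 and -0.13 over all genes tested.

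The 3 members with the smallest p for sgPpia#3.2 were Lefty1, Mageh1 and Cdhr5. Lefty1 and Mageh1 were higher with sgPpia#3.2 than with sgBgal in both states, by 1.03 and 0.53 on the log2 scale in Control and Restored for Lefty1 and by 0.81 and 0.50 for Mageh1. Cdhr5 was lower in both states, with differences of -0.97 and -0.43. The fitted differences were 0.78 for Lefty1 (SE 0.18, limma adjusted p = 0.194), 0.66 for Mageh1 (SE 0.15, adjusted p = 0.194) and -0.70 for Cdhr5 (SE 0.19, adjusted p = 0.197). All 3 differences were larger in the Control libraries, where the sgPpia#3.2 culture also had the higher Cdkn1a, and the part of that culture in the differences was not tested. With all 18 samples in the fit the adjusted p-values were 0.0107, 0.0327 and 0.0239, still short of the fold threshold; the spread in that fit includes lines in which the members lie near 0.

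With sgPpia#4.1 the same genes differed by -0.02 (Lefty1), 0.06 (Mageh1) and 0.15 (Cdhr5). The 3 smallest p-values with sgPpia#4.1 belonged to Slc38a1 at -0.40 (SE 0.22), St6galnac2 at -0.25 (SE 0.17) and Tbkbp1 at -0.29 (SE 0.25), with limma adjusted p-values between 0.789 and 0.804. Both guide contrasts share the sgBgal libraries. Slc38a1 differed from sgBgal by -0.13 and -0.71 (Control and Restored) with sgPpia#3.2 and by -0.49 and -0.32 with sgPpia#4.1, where the median over all genes was itself below 0 with both guides. The difference of the p53 response between guides rests on 1 library in each cell and has no test.

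**Figure D3:**
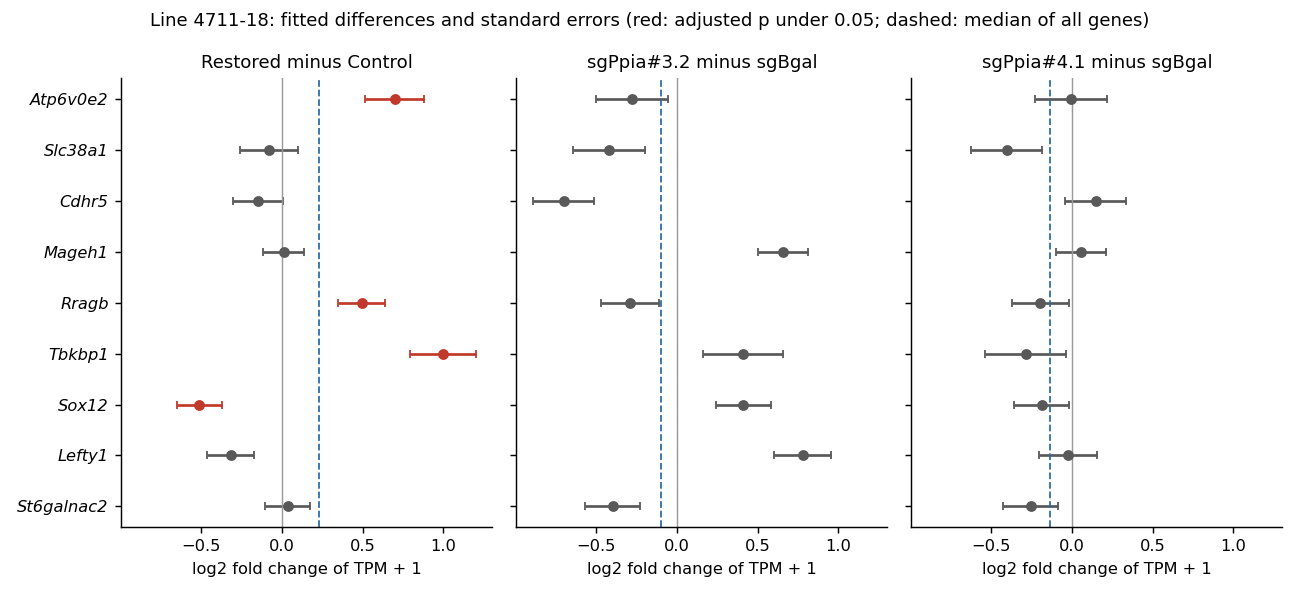
Fitted log2 differences of TPM + 1 for 9 of the genes in 4711-18, for p53 restoration and for each Ppia guide against sgBgal, with standard errors as bars. Red points have an adjusted p under 0.05 and occur with p53 only; the dashed line is the median of all 11960 genes, at 0.23, -0.10 and -0.13.

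Some relatives and partners of these genes were expressed in all 3 lines and others were not. The families were listed once the members were known, not by their values. A median of at least 1 TPM in all 3 lines was found for 18 of 25 other V-ATPase genes, 7 of 8 other Rag and Ragulator genes and 7 of 7 genes around TBK1. The same held for 5 of 10 other SLC38 carriers, 6 of 15 other Nodal pathway genes, 3 of 7 other sialyltransferases, 3 of 4 other microvillar adhesion genes, 1 of 2 other SoxC genes and 2 of 22 other MAGE genes. Atp6v0e, which encodes the other form of the same V-ATPase subunit, had medians of 699 TPM in 4711-18, 462 TPM in 4711-1 and 738 TPM in 4716-11, so Atp6v0e2 at 55.4 TPM was the lesser form in 4711-18. Rraga, which encodes the close relative RagA, had medians of 167, 266 and 221 TPM against 12.8 TPM of Rragb in 4711-18. The 6 Rraga values of 4711-18 (135 to 193 TPM) lay below all 6 of 4711-1 (231 to 288 TPM) and overlapped those of 4716-11 (188 to 258 TPM). Rragc, a partner of RagA and RagB, was at 93.7, 105 and 87.6 TPM.

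Slc38a2, a glutamine carrier of the same family whose gene lies 44.0 kb from Slc38a1, had medians of 446, 346 and 296 TPM. Sox4, of the SoxC family like Sox12, was at 297, 256 and 203 TPM, and Sox11 at 0.888, 0.488 and 0.0334 TPM. Cdhr2, the cadherin that pairs with Cdhr5 between microvilli, was at 21.3, 9.82 and 18.2 TPM, and Cdhr5 in 4711-18 was above it at 34.5 TPM. Ush1c, which encodes a scaffold of that complex, was at 0.220 TPM in 4711-18. Tbk1, the kinase Tbkbp1 binds, was at 42.8, 39.5 and 35.0 TPM, and Azi2, which encodes a related TBK1 adaptor, at 16.6, 15.8 and 12.1 TPM. Maged1 of the MAGE family was at 156, 162 and 150 TPM, and St6galnac4 at 10.4, 10.8 and 8.25 TPM.

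For Lefty1 the partners differed. Nodal, its target, had a median of 0 TPM in all 3 lines and never passed 0.0452 TPM, and Tdgf1, which encodes the Nodal co-receptor Cripto, stayed at or below 0.0774 TPM. Lefty2, its closest relative, did not pass 0.0774 TPM. The activin and Nodal receptor Acvr1b was at 29.1 TPM in 4711-18, 18.5 TPM in 4711-1 and 7.22 TPM in 4716-11.

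**Figure D4:**
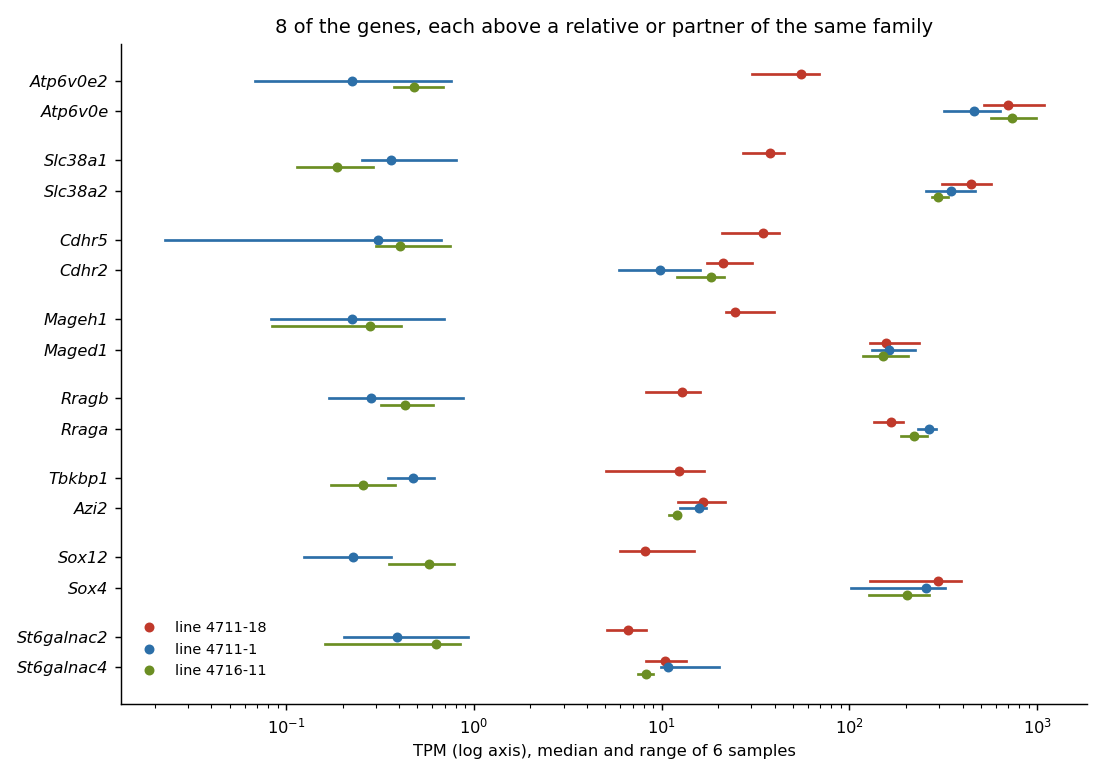
Median (point) and range (bar) over 6 samples for 8 of the genes and a relative or partner of each, by line, in TPM on a log axis. The relative was chosen among those expressed in all 3 lines, with medians from 8.25 TPM (St6galnac4) to 738 TPM (Atp6v0e), while the member lies below 1 TPM outside 4711-18.

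The same families were set beside the members in the p53 contrast, where 9.73% of all genes tested rose and 4.31% fell, and no test compared the families with these shares. Of 18 other V-ATPase genes tested, 2 rose (Atp6v1a by 1.24 and Atp6v1e1 by 1.14 on the log2 scale) and 1 fell (Atp6v1c2, -1.55), and Atp6v0e had a value of 0.79 beside 0.70 for Atp6v0e2. None of 7 other Rag and Ragulator genes passed the test in either direction, with values of 0.41 for Rraga and 0.57 for Rragc beside 0.50 for Rragb. Of 7 other genes around TBK1, 1 rose, Ikbke, the kinase related to TBK1, by 1.85, and Tbk1 itself had a value of 0.56. In the SoxC family Sox4 rose by 1.08, while Sox11 had a value of -0.997 (limma adjusted p = 0.00917), just short of the fold threshold, beside -0.51 for Sox12. Among SLC38 carriers 1 of 5 rose (Slc38a6, 1.17), among other Nodal pathway genes 1 of 6 (Smad3, 1.09), among other MAGE genes 1 of 4 (Magee1, 1.05), and none of 3 other microvillar or 3 other sialyltransferase genes was called. None of the 10 genes is on the study's own gene lists.

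The genes lie on several chromosomes in RefSeq on build GRCm38.p6: 1 (Lefty1), 2 (Sox12), 6 (Atp6v0e2), 7 (Cdhr5), 11 (Tbkbp1 and St6galnac2), 15 (Slc38a1) and X (Mageh1 and Rragb). Mageh1 (chrX:153036166-153037563) and Rragb (chrX:153137644-153190192) are 100 kb apart, and 4 weakly expressed genes between or near them also had their highest median in 4711-18. The median of 9530051G07Rik was 0.273 TPM in 4711-18 and 0 in both other lines, and those of Usp51 and Foxr2 were 0.173 and 0.0516 TPM against 0. Klf8 was at 0.237, 0 and 0.0109 TPM. The nearest other genes with a median of at least 1 TPM lay farther out and were expressed in all 3 lines: Shroom2, 265 kb from Mageh1, had medians of 4.19, 2.42 and 5.10 TPM in 4711-18, 4711-1 and 4716-11, and Ubqln2, 308 kb from Rragb, 62.7, 49.7 and 72.3 TPM. The fitted log2 differences were 0.50 for Rragb and 0.01 for Mageh1 with p53, and -0.29 and 0.66 with sgPpia#3.2; none was called, and no test compared the genes with each other. Near Atp6v0e2 (chr6:48537569-48541801), 3 of 9 neighbours within 500 kb with a median of at least 1 TPM in a line were higher in all 6 samples of 4711-18 than in all 12 others, beside 4.44% of all such genes. They include Krba1, 118 kb away, at 2.77, 0.254 and 0.328 TPM, and Gimap9, 134 kb away, at 18.98, 3.61 and 4.69 TPM. Near Lefty1, 1 of 13 such neighbours was higher in this way. Near Mageh1 it was 1 of 3, namely Rragb, and near Rragb 1 of 4, namely Mageh1. Around Slc38a1, Cdhr5, Tbkbp1, Sox12 and St6galnac2, no such neighbour was higher in all 6 samples.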

How the data were processed

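Libraries of 3 Type D lines were grouped by line, guide and state from the sample labels, 1 library each. The authors deposited TPM for 25239 genes in 18 columns. The study's methods name Kallisto or HISAT2 and call the genome mm10 as well as GRCm39. The submitters' processing notes list HISAT2 and both builds. The program and annotation behind the TPM are not given in the sources used here. TPM hold no total count, so counting error has no interval, and relative depth was read from the value of 1 step among low genes.

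The members and all lists were chosen with earlier results of these data known. Fits used limma 3.58.1 (R 4.3.3; lmFit and eBayes) on log2(TPM + 1) over the 6 samples of 4711-18, with state and guide as terms, because the members lie near 0 elsewhere. The guide serves as the pairing. That the Control and Restored libraries of a guide came from the same split culture is assumed, since the labels give only line, guide and state. The 11960 genes that reached 1 TPM in 3 or more of these samples were tested. A call needed a Benjamini-Hochberg adjusted p under 0.05 over all of them and a log2 fold change of at least 1 in size. Fold changes on this scale understate those of low genes. On data simulated for the p53 contrast the fit recovered 99% of genes changed by 1.5 on the log2 scale and 100% of those changed by 2. There were 8 false calls in 11960 genes. Smaller changes, such as those of the members, and the guide contrasts were not simulated, so their recovery is not known.

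Named genes were the members, those nearest to each limit, the 3 with the smallest p where a contrast called none, markers and p53 targets; relatives and neighbours within 500 kb were added after the members were known. Alternatives covered the limits, scaling, pseudocount, filters, samples, moderation, threshold, pairing and left-out libraries. Promoter sequences came from RefSeq (GRCm38.p6). Figures used matplotlib. Results on 1 member and some marker genes are not reported here; counts and medians over the members cover all 10.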

Additional observations from a re-analysis of the deposited data

How the results depend on the processing

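The number of genes by the rule was 15 at a lower limit of 3 TPM, 5 at 10 TPM, 1 with an upper limit of 0.5 TPM, 17 with 2 TPM and 10 after rescaling. For p53 restoration, 0 members passed the test upward in the reported fit, 1 (Tbkbp1) with a pseudocount of 0.1 and 3 with the adjusted p alone. Leaving out libraries or guide pairs gave 0 to 1, the 1 being Tbkbp1 without either library of the sgPpia#3.2 pair. Downward, 0 passed in the reported fit and 1 (Sox12) with the adjusted p alone. The fit with no replicate block gave 0 members in each direction, so the block changed no member's call at both thresholds. Over all genes that fit called 1163 up and 505 down. No alternative called a member with either Ppia guide. Rescaling turned Mageh1 to -0.23 and St6galnac2 to -0.18 for p53. Leaving out libraries or pairs, the p53 values ranged from -0.23 to 0.14 for Slc38a1, -0.25 to 0.021 for Cdhr5, -0.046 to 0.11 for Mageh1 and -0.10 to 0.10 for St6galnac2. For a left-out library the state difference of its guide cannot be estimated, so the p53 value equals that without the pair. Over all genes, p53 calls were 1164 up and 515 down, 727 and 760 after rescaling, 1445 and 605 with the smaller pseudocount, 3700 and 1392 with the adjusted p alone, and 958 to 1599 up and 466 to 664 down without a library; the largest counts were those without the sgPpia#3.2 pair. With sgPpia#3.2, leaving out a library gave 0 to 357 up and 2 to 406 down over all genes, the largest counts resting on 1 library of that guide. Without the sgBgal pair the Ppia guides have no reference and no value. The fits have 2 residual degrees of freedom.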
